A study of Mus musculus with 2 samples.

Results

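The genes described here are 34 genes of glucose breakdown and of the response to low oxygen. They were taken by symbol from the gene list of both expression matrices, where they occupy 35 rows of 31055 genes, because the aldolase gene Aldoa has a second row with 5 UMIs in all cells. They cover glucose uptake (Slc2a1), the upper steps of glycolysis (Hk1, Hk2, Gpi1, Pfkl, Pfkp, Pfkfb3, Pfkfb4, Aldoa and Aldoc) and its lower steps (Tpi1, Gapdh, Pgk1, Pgam1, Eno1 and Pkm). Ldha and Slc16a3 make and export lactate, and Pdk1 limits the breakdown of pyruvate in mitochondria (labelled pyruvate entry in the figures). The regulator Hif1a and the oxygen sensors Egln1 and Egln3, the mitophagy receptors Bnip3 and Bnip3l, and 10 further targets (Ankrd37, Ndrg1, P4ha1, P4ha2, Kdm3a, Mif, Higd1a, Mxi1, Ddit4 and Ak4) complete the list. Each of the 34 had UMIs in cells of both tumours.

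The study measured RNA in single leukocytes from subcutaneous squamous cell carcinomas of untreated FVB mice. Each tumour was a mosaic of the carcinoma lines CIT6 YFP and CIT9 RFP, which had been injected together. Sections were marked with light-printed oligonucleotide codes (ZipSeq) and digested with collagenase, and CD45+ cells, that is leukocytes, were sorted and read with the droplet 10x 3' v3 chemistry. The 2 samples, replicate 1 and replicate 3, form 1 group, so that the comparisons run between cell classes, between macrophage subsets and between code shares of the same tumours. Whether each tumour grew in an animal of its own is not in the labels. Shifts common to all groups of a tumour were removed in the fit. The p-values thus measure only how group differences varied between these 2 samples. Groups of a kind (classes, macrophage subsets or code groups) shared a fit and its estimate of the spread. Replicate 1 held 89040909 gene UMIs and gave 4818 cells with a median of 16798 UMIs, and replicate 3 held 170328781 gene UMIs and gave 6734 cells with a median of 21345.5 UMIs. The libraries shared 9 cell barcodes, of which 3 fell in the same class.

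Cells were assigned to classes by marker genes, none of which is one of the 34. Replicates 1 and 3 held 389 and 39 neutrophils, 74 and 434 monocytes, 94 and 135 conventional dendritic cells, 409 and 852 T cells, 102 and 200 NK cells, and 2756 and 3041 macrophages. The 10 neutrophil markers summed to 160600 and 75445 CPM in neutrophils, against 306 and 98.7 CPM in macrophages, and the 10 macrophage markers to 1855 and 2482 CPM in neutrophils, against 49550 and 38330 CPM in macrophages. Here CPM stands for UMIs per 1000000 UMIs of the cells summed, and pairs of values are those of replicate 1 and replicate 3 in that order unless stated. A ratio within 1 tumour, or between the tumours, is that of CPM + 1 on the log2 scale (for comparisons with a test, of TMM-scaled CPM), which understates the change of low genes. Neutrophils were shallow, with a median of 2547 and 2580 UMIs per cell against 18941.5 and 24198 in macrophages, and those of replicate 3 held 107191 UMIs in all, so that 1 UMI there is 9.33 CPM. Barcodes with under 100 UMIs, which carry mostly free RNA, held 34 and 32 of the 34 members within 2-fold of macrophages, with a median ratio of 0.855 and 0.986 and the widest at 4.49 for P4ha2 in replicate 3. For example, Slc2a1 stood there at 88.1 and 57.2 CPM and Egln3 at 19.2 and 5.76 CPM. Plasmacytoid dendritic cells (7 and 118 cells) were too few in replicate 1 for a test.

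In cells with enough oxygen, the prolyl hydroxylases encoded by Egln1 and Egln3 mark the alpha subunits of hypoxia-inducible factor (HIF) for destruction. When oxygen falls, or when inflammatory signals raise Hif1a, HIF binds its response element and switches on glucose transporters, glycolytic enzymes, lactate export, mitophagy receptors and its own hydroxylases. Macrophages and neutrophils in tumours are known for this response, and neutrophils rely on glycolysis for most of their energy.

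The core of the HIF response element is a purine followed by CGTG, and promoters of the members were searched for both forms, ACGTG and GCGTG. RefSeq promoters on GRCm38.p6, from 250 bases before to 50 after each start, were found for 32 of the 34 genes (49 promoters). Ndrg1 and Bnip3l had no entry. ACGTG on either strand was found in 27 of the 49 (55.1%), against 19.6% of all 32851 promoters of the table, and at least 2 matches in 24.5% against 8.21%. GCGTG on either strand was found in 57.1% of member promoters and 32.4% of all promoters. Member promoters had a median GC content of 65.0% against 52.7% over all promoters, so the shares differ in base composition as well, and a match is a description of letters only. Shown are promoters of 6 members of different roles that were all higher in Arg1 macrophages than in Spp1 macrophages, the comparison with the most calls (given further on), and they were picked with their ACGTG matches known. Of the 24 members higher there, 22 had a promoter entry, 17 held ACGTG in at least 1 window, and Eno1, Gpi1, Pdk1, Pfkl and Tpi1 held it in none. Of the members not called there, Aldoc, Hk1, Hk2, P4ha1, Higd1a, Ddit4 and Ak4 also held it, and Pfkp, Pfkfb4 and Kdm3a did not. The share of all genes with ACGTG in any window was not taken. Whether ACGTG goes with the call was not tested. Capitals mark ACGTG, which reads CACGT where it lies on the other strand, and positions count from the start, negative before it. The Egln3 window lies at chr12:54203825-54204124 (minus strand) with a match at -229, the Slc2a1 window at chr4:119108495-119108794 (plus strand) with a match at -36, and the Slc16a3 window at chr11:120948817-120949116 (plus strand) with matches at -27 and -14. The Bnip3 window lies at chr7:138909457-138909756 (minus strand), where the palindrome CACGTG gives overlapping matches at -108 and -107. The Ankrd37 window at chr8:45999801-46000100 (minus strand) holds matches at -241 and -6, and the Pgk1 window at chrX:106186850-106187149 (plus strand) at -150 and -131.
Slc2a1: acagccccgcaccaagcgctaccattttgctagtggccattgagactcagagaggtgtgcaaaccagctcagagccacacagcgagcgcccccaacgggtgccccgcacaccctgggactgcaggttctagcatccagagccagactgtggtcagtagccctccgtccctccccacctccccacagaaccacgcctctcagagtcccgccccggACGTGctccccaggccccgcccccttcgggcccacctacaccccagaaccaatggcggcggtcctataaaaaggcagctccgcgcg
Pgk1: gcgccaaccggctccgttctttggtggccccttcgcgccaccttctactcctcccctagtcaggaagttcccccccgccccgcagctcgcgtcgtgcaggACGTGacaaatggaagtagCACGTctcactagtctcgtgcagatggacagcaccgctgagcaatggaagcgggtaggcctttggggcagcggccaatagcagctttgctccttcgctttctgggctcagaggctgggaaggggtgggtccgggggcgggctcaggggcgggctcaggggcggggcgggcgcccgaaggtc
Slc16a3: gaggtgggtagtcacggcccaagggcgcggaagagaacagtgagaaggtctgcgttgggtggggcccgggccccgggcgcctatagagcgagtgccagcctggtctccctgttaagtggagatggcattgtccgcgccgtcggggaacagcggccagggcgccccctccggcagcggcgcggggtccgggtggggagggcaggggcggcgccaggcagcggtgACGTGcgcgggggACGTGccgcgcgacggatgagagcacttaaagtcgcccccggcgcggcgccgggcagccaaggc
Egln3: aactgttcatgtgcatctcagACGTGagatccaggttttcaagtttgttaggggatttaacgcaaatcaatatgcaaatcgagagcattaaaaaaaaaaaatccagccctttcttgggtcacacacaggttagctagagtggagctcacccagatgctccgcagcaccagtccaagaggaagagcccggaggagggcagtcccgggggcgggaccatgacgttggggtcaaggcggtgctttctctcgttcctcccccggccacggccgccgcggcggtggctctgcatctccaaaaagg
Bnip3: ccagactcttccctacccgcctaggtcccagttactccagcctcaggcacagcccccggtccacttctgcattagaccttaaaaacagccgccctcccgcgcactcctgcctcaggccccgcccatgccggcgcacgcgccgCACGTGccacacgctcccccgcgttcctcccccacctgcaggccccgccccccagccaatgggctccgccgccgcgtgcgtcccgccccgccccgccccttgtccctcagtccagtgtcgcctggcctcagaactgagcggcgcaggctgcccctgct
Ankrd37: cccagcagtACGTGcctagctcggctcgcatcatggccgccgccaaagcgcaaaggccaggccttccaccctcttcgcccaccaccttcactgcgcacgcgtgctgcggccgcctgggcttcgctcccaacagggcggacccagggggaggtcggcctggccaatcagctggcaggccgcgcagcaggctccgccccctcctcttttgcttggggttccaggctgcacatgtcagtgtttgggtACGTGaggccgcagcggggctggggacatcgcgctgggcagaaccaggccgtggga

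Neutrophils stood above macrophages in glucose uptake, in the regulators of phosphofructokinase, in lactate export and in the oxygen sensor Egln3, while most core glycolytic enzymes did not pass the test. Of 32 members tested, 17 rose and 1 fell in edgeR's quasi-likelihood test at an adjusted p under 0.05, where 20.9% of all genes tested rose and 27.8% fell (48.7% in either direction). The median log2 fold change was 0.97 over the members and -0.57 over all genes. With library size alone as the scaling these medians were 0.31 and -1.31 and the calls 14 higher and 5 lower, while the members lay 1.54 and 1.62 above the median gene under the 2 scalings. P4ha2 and Ak4 were too low to be tested, at 0 and 0 and at 1.76 and 0 CPM in neutrophils, against 6.80 and 1.89 and 1.47 and 0.852 CPM in macrophages.

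Slc2a1, the glucose transporter GLUT1, had 609 and 327 CPM in neutrophils of replicates 1 and 3, against 143 and 52.5 CPM in macrophages, a log2 fold change of 2.94 ± 0.38 (SE, n = 2 tumours; adjusted p = 4.03e-05). Both neutrophil sums lay above both macrophage sums. Of the 9 upper glycolysis members 5 rose and 1 fell. The bifunctional enzymes Pfkfb4 and Pfkfb3 set the level of the sugar bisphosphate that activates phosphofructokinase. Pfkfb4 had 67.9 and 84.0 CPM in neutrophils, against 18.3 and 17.4 CPM in macrophages (2.65 ± 0.30), and Pfkfb3 had 99.6 and 37.3 CPM against 47.0 and 14.3 CPM (2.11 ± 0.35). In replicate 3 neutrophils these values rest on 9 UMIs of Pfkfb4 and 4 of Pfkfb3. For Pfkfb3 the neutrophils of replicate 3 lay below the macrophages of replicate 1, so the groups overlap unless read within a tumour. Pfkp, the platelet-type subunit of phosphofructokinase, had 267 and 121 CPM in neutrophils, against 62.1 and 64.6 CPM in macrophages (2.39 ± 0.35). Aldoc, the brain-type aldolase, was the member that fell, with 3 and 0 UMIs in neutrophils of replicates 1 and 3, against 1225 and 1063 UMIs or 22.3 and 12.6 CPM in macrophages (-2.19 ± 0.68). In replicate 3 the 0 UMIs allow up to 28 CPM, above the 12.6 CPM of macrophages, so only replicate 1 shows the fall.

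In lactate handling Slc16a3, the exporter MCT4, rose while Ldha, the lactate dehydrogenase A subunit, did not pass. Slc16a3 had 1036 and 513 CPM in neutrophils, against 129 and 78.6 CPM in macrophages (3.43 ± 0.30; adjusted p = 1.21e-06). Ldha had 726 and 401 CPM against 618 and 684 CPM (0.46 ± 0.37). Among the 6 lower glycolysis members 2 rose, pyruvate kinase Pkm (1.39 ± 0.31) and enolase Eno1 (0.98 ± 0.28). Gapdh, Tpi1, Pgk1 and Pgam1 gave log2 fold changes of 0.38 ± 0.40, -0.12 ± 0.41, 0.56 ± 0.28 and 0.75 ± 0.37 and did not pass. Egln3, an oxygen-sensing hydroxylase that HIF itself induces, had the widest difference of the list, at 286 and 74.6 CPM in neutrophils, against 15.0 and 4.92 CPM in macrophages (4.91 ± 0.28; adjusted p = 3.02e-08). Every neutrophil sum of Egln3 lay above every macrophage sum. In replicate 3 neutrophils 1 UMI is 9.33 CPM, so the 74.6 CPM of Egln3 there rest on few UMIs. Its relative Egln1 had 68.8 and 37.3 CPM against 87.7 and 69.3 CPM (0.34 ± 0.29) and did not pass. The printed CPM are scaled by library size alone and the fold changes by TMM. In this comparison TMM set the median gene at -0.57 in place of -1.31. Fold changes here therefore exceed the CPM ratios, and for Egln1 the sign differs. Gpi1, Pfkl, Aldoa, Pdk1, Ndrg1, Mif, Mxi1 and Ddit4 did not pass either, with log2 fold changes from -0.39 (Gpi1) to 0.80 (Aldoa).

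Ankrd37, a small ankyrin-repeat HIF target, had 83.8 and 74.6 CPM in neutrophils, against 31.1 and 13.5 CPM in macrophages (2.44 ± 0.31). Bnip3l, a receptor that marks mitochondria for mitophagy, had 365 and 299 CPM against 174 and 115 CPM (1.77 ± 0.26). Both were higher in neutrophils within each tumour and without overlap. The 74.6 CPM of Ankrd37 in replicate 3 neutrophils rest on few UMIs, as 1 UMI there is 9.33 CPM. Hif1a itself rose by 1.66 ± 0.41, with 574 and 168 CPM in neutrophils and 223 and 153 CPM in macrophages, and the collagen hydroxylase subunit P4ha1 rose by 1.07 ± 0.28. For 5 of the 18 called members the tumours disagreed. Hk1 and Hk2 (hexokinases), Bnip3, the histone demethylase Kdm3a and the mitochondrial protein Higd1a were higher in neutrophils of replicate 1 but not in those of replicate 3, where 39 cells were summed. In replicate 3 Hk1 and Hk2 had 1 UMI each in neutrophils, or 9.33 CPM, against 22.9 and 44.1 CPM in macrophages. Bnip3 had 5 UMIs or 46.6 CPM in these neutrophils against 78 CPM in macrophages, and Higd1a 10 UMIs or 93.3 CPM against 121 CPM. Kdm3a was at 0 UMIs, which allows up to 3 counts or 28 CPM, a limit above the 18.9 CPM of macrophages. In replicate 1 alone the members' median log2 ratio was 1.33, and in replicate 3 alone it was -0.29.

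Of 42 other genes of these pathways tested, 15 rose and 6 fell in neutrophils. The glucose transporter gene Slc2a3 had 307 and 84.0 CPM in neutrophils, against 2.11 and 1.56 CPM in macrophages (7.60 ± 0.41), and the transporter gene Slc2a6 had 67.9 and 131 CPM against 7.62 and 21.6 CPM (3.51 ± 0.30). At 9.33 CPM per UMI, the replicate 3 neutrophil levels of both genes rest on few UMIs. Ldhb, the lactate dehydrogenase B subunit, and Pdk2 were at 0 UMIs in neutrophils of both tumours, against 13.5 and 14.6 CPM and 5.82 and 4.51 CPM in macrophages. A count of 0 in neutrophils allows up to 2.64 CPM in replicate 1. In replicate 3 it allows up to 28 CPM, above both macrophage levels of that tumour. Mitochondrial UMIs made up 2.26% and 2.18% of neutrophil sums, against 5.07% and 3.90% of macrophage sums, and the part of depth and RNA content in these differences was not tested.

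**Figure D1:**
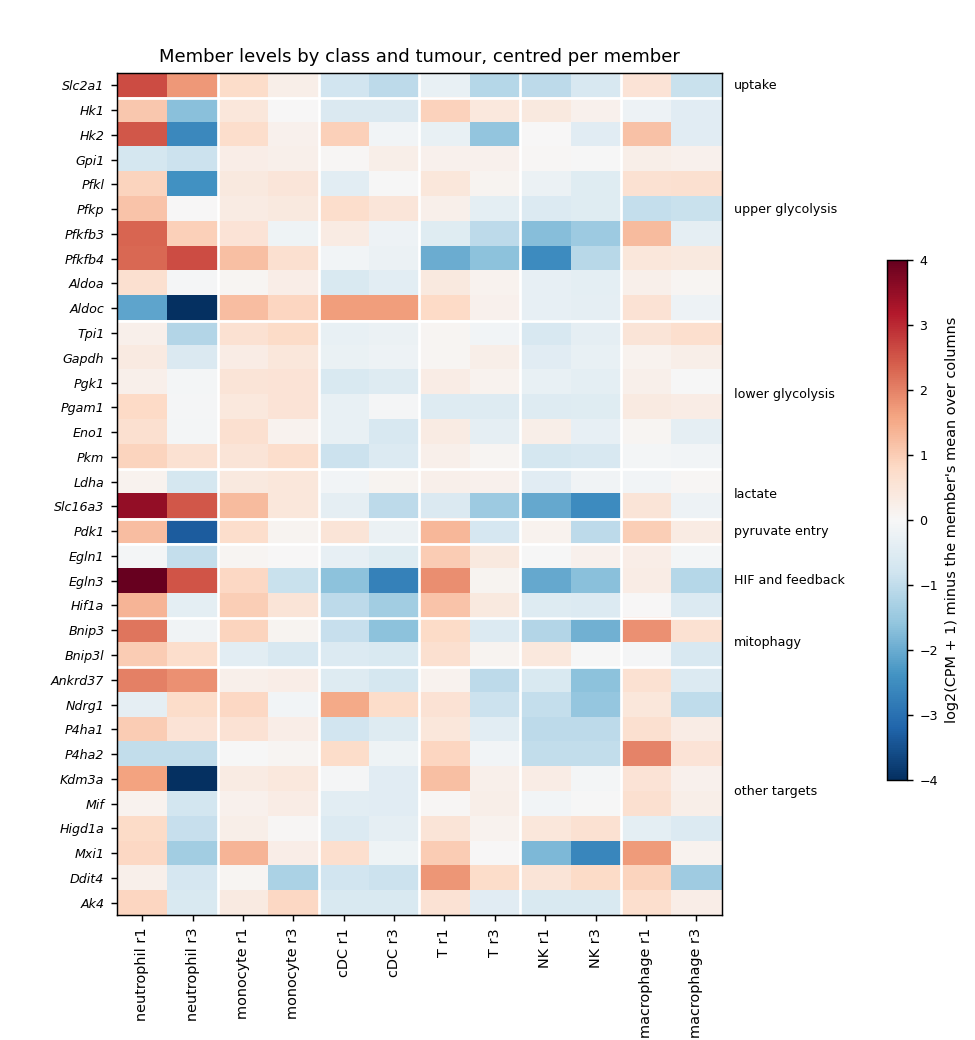
Levels of the 34 members, ordered by role, in summed UMIs of 6 classes of each tumour (r1, r3). Colour is log2(CPM + 1) minus the member's own mean over the 12 columns, so members cannot be compared with each other; Egln3, Slc16a3, Slc2a1 and Pfkfb4 are red in both neutrophil columns, and the neutrophil column of replicate 3 is blue for Hk2, Pdk1 and Kdm3a.

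**Figure D2:**
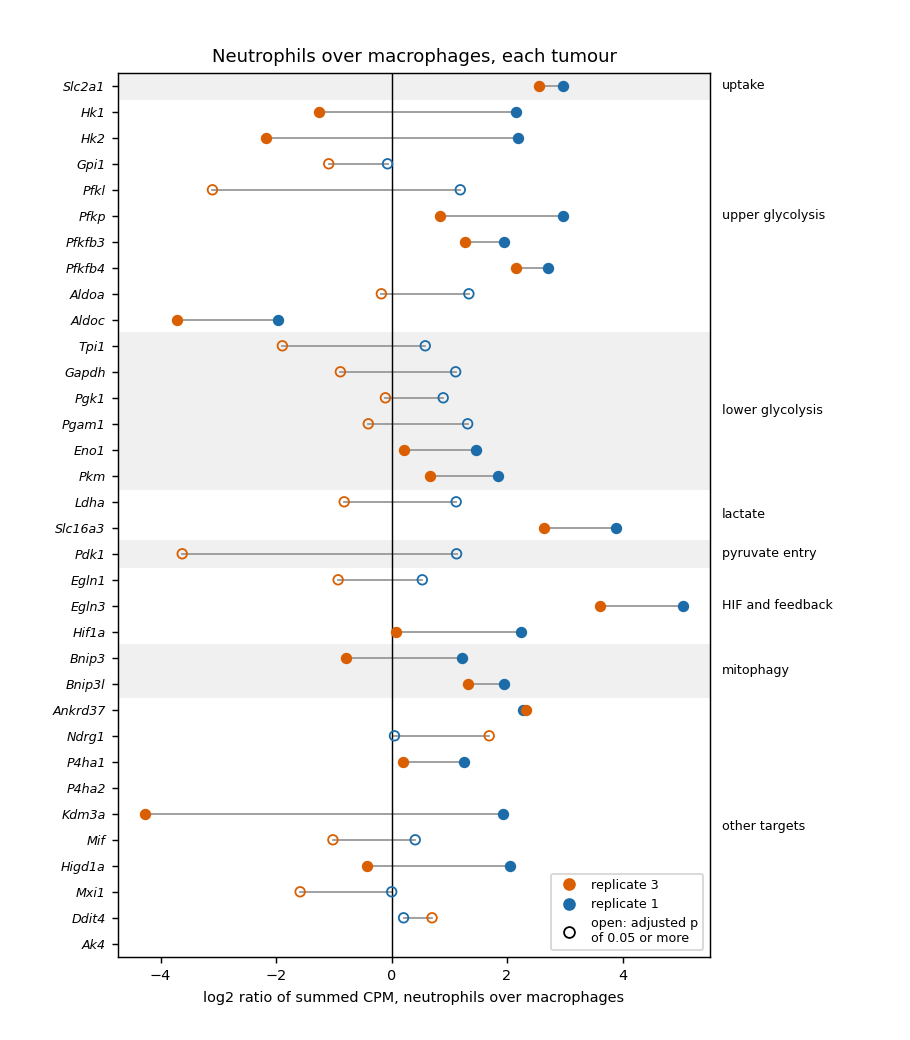
Log2 ratio of neutrophils over macrophages in each tumour for the 32 members tested, with a grey line joining the tumours. Filled points mark an adjusted p under 0.05 in edgeR's test. P4ha2 and Ak4 were not tested and have no point. Both Egln3 points lie right of 0 and both Aldoc points left of it. For 5 called members the replicate 3 ratio lies on the other side of 0 from the replicate 1 ratio. Ratios are of CPM + 1, and among called members those of Kdm3a and Aldoc in replicate 3 rest on 0 UMIs in neutrophils.

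Monocytes, set against the same macrophage sums as all classes here, had few calls: 2 of 32 members rose and 0 fell, where 5.06% and 5.37% of all genes did (10.4% in either direction), and the members' median was 0.12 against -0.04 over all genes. Without replicate 3 this median was -0.00021, and without replicate 1 it was 0.20. Pfkp had 152 and 157 CPM in monocytes, against 62.1 and 64.6 CPM in macrophages (1.25 ± 0.32; edgeR adjusted p = 0.0218). Aldoc had 35.9 and 27.8 CPM against 22.3 and 12.6 CPM (0.87 ± 0.22; adjusted p = 0.0216). Both were higher in monocytes of each tumour, without overlap. DESeq2 made 1 call, a fit without the tumour block 0, library size alone as the scaling 6 (5 higher and 1 lower) and a stricter cell filter 9 (8 and 1). Bnip3 had 95.2 and 54.6 CPM in monocytes and 183 and 78 CPM in macrophages (-0.75 ± 0.27; adjusted p = 0.101) and did not pass. Of 42 other pathway genes 2 rose and 5 fell, among them the circadian repressor Bhlhe41, at 0 and 1.20 CPM in monocytes against 22.1 and 7.57 CPM in macrophages, the muscle-type phosphofructokinase subunit Pfkm (-2.30 ± 0.55), Pdk2 (-1.74 ± 0.42) and the collagen lysyl hydroxylase Plod1 (-1.55 ± 0.28).

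Conventional dendritic cells had more Aldoc, Pfkp and Ndrg1 than macrophages and less Bnip3, Egln3 and P4ha1. These were 3 members higher and 3 lower of 32, where 10.7% of all genes rose and 10.9% fell (21.6% together), and the median was -0.55 over the members and -0.02 over all genes. The called share was close to that of all genes, and the members' median was -0.29 without replicate 1 and -0.68 without replicate 3. Library size alone as the scaling gave 3 higher and 12 lower. Aldoc had 49.0 and 49.7 CPM in dendritic cells, against 22.3 and 12.6 CPM in macrophages (1.64 ± 0.21), and Pfkp had 199 and 169.6 CPM against 62.1 and 64.6 CPM (1.59 ± 0.32). Ndrg1, a stress-responsive gene of the HIF programme, had 97.6 and 55.6 CPM against 45.7 and 16.0 CPM (1.5 ± 0.21). Each of these was higher in dendritic cells of both tumours, and for these genes every dendritic cell sum lay above every macrophage sum. The Ndrg1 level was uneven among dendritic cells: activated cells, known by Ccr7 and Fscn1, held 293 and 90.1 CPM on 14 and 16 cells, cDC1 cells 109.9 and 39.2 CPM on 15 and 31 cells, and cDC2 cells 68.7 and 58.6 CPM on 65 and 88 cells.

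Bnip3 had 26.4 and 15.6 CPM in dendritic cells, against 183 and 78 CPM in macrophages (-2.49 ± 0.31), and Egln3 had 7 and 4 UMIs, or 3.24 and 1.02 CPM, against 15.0 and 4.92 CPM (-2.19 ± 0.46). P4ha1 had 29.6 and 35.7 CPM against 79.8 and 62.8 CPM (-1.0 ± 0.24). The dendritic cell sums of all 3 genes lay below the macrophage sums of both tumours. In dendritic cells 5 of 42 other pathway genes rose and 10 fell. Those that fell most were Bhlhe41 (-5.17 ± 0.67), the monocarboxylate transporter Slc16a7 (-3.47 ± 0.38), Ldhb (-2.93 ± 0.44) and Plod1 (-2.48 ± 0.31).

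In T cells a smaller share of the members than of all genes was called against macrophages: Egln3, Ddit4, Hk1 and Bnip3l were higher, and Pfkfb4, Hk2, Pfkfb3, Slc16a3, Bnip3 and Pgam1 lower. That is 4 rising and 6 falling of 32 members, where 24.9% of all genes rose and 24.6% fell (49.5% together). The median was -0.07 over the members (-0.02 without replicate 3) and 0.02 over all genes, and 0.04 and 0.12 with library size alone as the scaling, which called 8 higher and 6 lower. Without the tumour block 0 rose and 2 fell. Egln3 had 46.3 and 13.2 CPM in T cells, against 15.0 and 4.92 CPM in macrophages (1.42 ± 0.24; edgeR adjusted p = 0.000238), and Ddit4, an inhibitor of the growth kinase complex mTORC1, had 153 and 75.4 CPM against 83.2 and 16.2 CPM (1.30 ± 0.40). For both genes T cells of replicate 3 lay below macrophages of replicate 1, so the difference holds within each tumour and the groups overlap across tumours. Hk1 had 62.1 and 43.4 CPM in T cells, against 27.7 and 22.9 CPM (0.93 ± 0.24), and did not overlap.

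Pfkfb4 had 2.55 and 3.48 CPM in T cells, against 18.3 and 17.4 CPM in macrophages (-2.52 ± 0.31), and Slc16a3 had 60.0 and 32.3 CPM against 129 and 78.6 CPM (-1.30 ± 0.28). Both stood below macrophages in each tumour without overlap. Hk2 had 49.3 and 19.7 CPM against 139 and 44.1 CPM (-1.45 ± 0.45), Pfkfb3 had 13.2 and 8.65 CPM against 47.0 and 14.3 CPM (-1.37 ± 0.31), and Bnip3 had 87.2 and 34.8 CPM against 183 and 78 CPM (-1.22 ± 0.27). These 3 were lower in T cells within each tumour, and the groups overlapped for Hk2 and Bnip3. Bnip3l (0.63 ± 0.24) and Pgam1, the phosphoglycerate mutase (-0.95 ± 0.36), were the other called members. Among 42 other pathway genes, 12 rose and 16 fell in T cells. The nuclear receptor Rora had 387 and 335 CPM in T cells against 17.6 and 8.76 CPM in macrophages (4.75 ± 0.28), and Slc2a3 37.4 and 28.8 CPM against 2.11 and 1.56 CPM (4.09 ± 0.36). Stc2, a secreted glycoprotein gene, rose by 4.49 ± 0.36, and Slc16a7 changed by -3.70 ± 0.34.

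NK cells were the class with the most members below macrophages: 12 of 32 fell and 1 rose, where 23.8% of all genes fell and 21.1% rose (44.8% together), and the median was -0.56 against -0.00 over all genes. The share called in both directions together was close to that of all genes. Without the tumour block 6 fell. Mxi1, an antagonist of MYC, had 13.7 and 7.35 CPM in NK cells, against 168 and 56.0 CPM in macrophages (-3.29 ± 0.31; edgeR adjusted p = 1.64e-06). Bnip3 had 22.3 and 12.8 CPM against 183 and 78 CPM (-2.82 ± 0.33), and Slc16a3 had 20.9 and 15.1 CPM against 129 and 78.6 CPM (-2.50 ± 0.32). All NK sums of these 3 lay below all macrophage sums. Pfkfb4 had 2 and 14 UMIs in NK cells (-2.16 ± 0.38), Pfkfb3 7 and 16 UMIs (-2.13 ± 0.43) and Egln3 3 and 8 UMIs (-1.60 ± 0.48), against 18.3 and 17.4, 47.0 and 14.3 and 15.0 and 4.92 CPM in macrophages. P4ha1 had 24.5 and 24.4 CPM against 79.8 and 62.8 CPM (-1.51 ± 0.27), and Ankrd37 13 and 5.80 CPM against 31.1 and 13.5 CPM (-1.25 ± 0.35). Pdk1, Tpi1, Ndrg1 and Pfkl also fell, by 1.25 to 1.01 on the log2 scale. The member that rose was Higd1a, at 242 and 271 CPM in NK cells against 133 and 121 CPM in macrophages (1.03 ± 0.37). Its call was lost with a mitochondrial limit of 5%, with free RNA subtracted and without the tumour block. In NK cells 9 of 42 other pathway genes rose, led by Stc2 (5.16 ± 0.38) and the collagen lysyl hydroxylase Plod2 (4.90 ± 0.59), and 11 fell, led by Ldhb (-4.25 ± 0.61) and the immediate early gene Ier3 (-3.97 ± 0.52).

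Among macrophages, subsets were gated on 2 or more marker genes and set against ungated macrophages of the same tumours (783 and 1299 cells), a reference that all subset comparisons share. Macrophages gated on Spp1 and Arg1, 131 and 85 cells or 4.75% and 2.80% of macrophages, stood above ungated macrophages in glycolysis and in several HIF targets. Of 34 members 18 rose and 0 fell, where 1.37% of all genes rose and 1.11% fell (2.48% together). The median log2 fold change was 0.60 over the members and -0.01 over all genes, and 29 of 34 members were higher in both tumours. DESeq2 called 19 higher, and edgeR without the tumour block called 0 members. All 6 lower glycolysis members and both lactate members rose, as did 4 of 9 upper glycolysis members, 2 of 3 of the HIF and oxygen sensor genes and 4 of 10 further targets. Slc2a1, Pdk1 and the mitophagy receptors did not pass.

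Egln3 had 39.4 and 11.2 CPM in Spp1 Arg1 macrophages, against 11.9 and 4.20 CPM in ungated ones (1.65 ± 0.33, SE, n = 2 tumours; edgeR adjusted p = 0.0112). Its relative Egln1 had 145 and 98.7 CPM against 80.9 and 67.2 CPM (0.71 ± 0.15; adjusted p = 0.0143). The gated sum of each tumour lay above its own ungated sum for both, and for Egln1 the groups did not overlap. Aldoc had 34.1 and 45.5 CPM against 19.4 and 10.3 CPM (1.51 ± 0.24; adjusted p = 0.00296), and Ndrg1 had 74.8 and 41.2 CPM against 33.1 and 13.4 CPM (1.37 ± 0.20; adjusted p = 0.00124). Neither overlapped. Ddit4 had 172 and 35.6 CPM against 74.6 and 14.8 CPM (1.29 ± 0.21; adjusted p = 0.00313), higher within each tumour although the tumours themselves lay far apart.

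Slc16a3, the lactate exporter, had 235 and 141 CPM in Spp1 Arg1 macrophages, against 113 and 68.2 CPM in ungated ones (1.06 ± 0.26), and phosphoglycerate kinase Pgk1 had 747 and 618 CPM against 409 and 344 CPM (0.86 ± 0.18). Both gated sums lay above both ungated sums for each gene. Pkm had 1186 and 1054 CPM against 695 and 686 CPM (0.70 ± 0.15), and Pfkp 82.8 and 87.1 CPM against 51.3 and 53.8 CPM (0.70 ± 0.16). Gpi1, Hk1, Tpi1, Gapdh, Pgam1, Eno1, Ldha, Mif (a cytokine) and Higd1a rose by 0.43 to 0.68. Members that did not pass included Slc2a1, at 281 and 93.1 CPM against 131 and 47.1 CPM (1.07 ± 0.29; adjusted p = 0.0605), P4ha2 (1.35 ± 0.36; adjusted p = 0.0579), Ankrd37 (0.99 ± 0.29; 0.0898) and Bnip3 (0.80 ± 0.29; 0.18). Of 42 other pathway genes 3 rose and 0 fell. Those that rose were the vascular growth factor Vegfa (1.02 ± 0.25), the lipid droplet gene Hilpda (0.95 ± 0.24) and Fam162a, the nuclear gene of a mitochondrial protein (0.74 ± 0.13).

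Cell identity differed along with the gate. All 10 macrophage markers were detected and summed to 42574 and 20923 CPM in Spp1 Arg1 macrophages, against 50963 and 41662 CPM in ungated ones, and the 8 monocyte markers summed to 315 and 698 CPM, against 221 and 593 CPM. Neutrophil markers summed to 239 and 133 CPM, against 237 and 87.5 CPM, and fibroblast markers to 45.1 and 28.8 CPM, against 46.4 and 22.2 CPM. Mitochondrial UMIs were 4.53% and 3.29%, against 5.17% and 3.95%. Their part in the result was not tested. The gate held different cells in the tumours: Arg1, which encodes arginase, had 3470 and 914 CPM and Spp1, which encodes osteopontin, 1463 and 4653 CPM in replicates 1 and 3, against 449 and 181 CPM and 168 and 284 CPM in ungated macrophages.

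**Figure D3:**
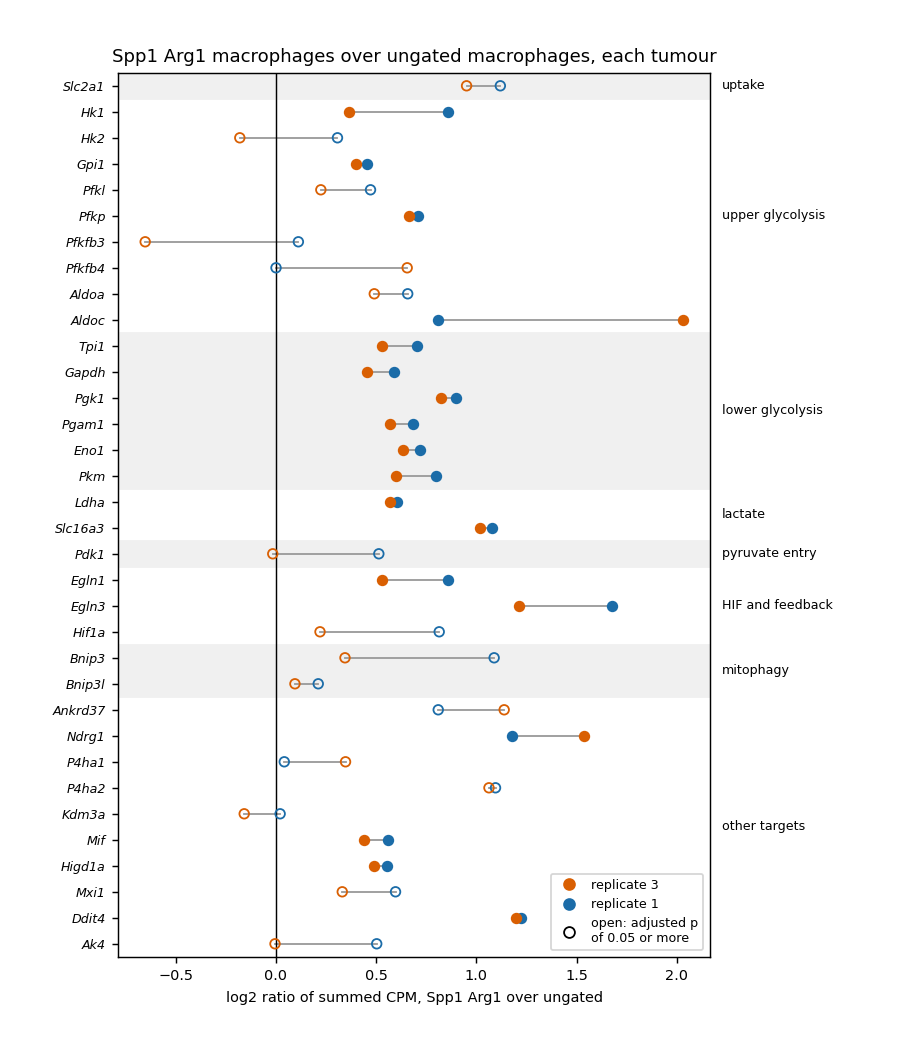
Log2 ratio of Spp1 Arg1 macrophages over ungated macrophages in each tumour for the 34 members by role, with a grey line joining the tumours. Filled points mark an adjusted p under 0.05 in edgeR's test. All 6 lower glycolysis members lie right of 0 in both tumours, as do Egln3, Aldoc, Ndrg1 and Ddit4. Their fitted log2 fold changes, which are not drawn, were 0.52 to 0.86 for the former and 1.29 to 1.65 for the latter.

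Because the markers took different shares in each tumour, they were also gated separately, a comparison chosen after the data were seen. Macrophages gated on Arg1 (244 and 38 cells) stood above those gated on Spp1 (100 and 207 cells) in 24 of 34 members and below them in 0, where 2.1% of all genes rose and 1.71% fell (3.81% together). The median was 0.76 over the members and 0.01 over all genes, and 30 of 34 members were higher in both tumours. DESeq2 called 25, and edgeR without the tumour block 0. Against ungated macrophages, a gate on Arg1 alone gave 24 members higher and 0 lower with a median of 0.85, and a gate on Spp1 alone 2 higher (Aldoc and Pfkp) and 0 lower with a median of 0.04.

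Egln3 had 46.8 and 24.5 CPM in Arg1 macrophages, against 7.47 and 5.36 CPM in Spp1 macrophages (2.32 ± 0.40; edgeR adjusted p = 0.0048). P4ha2, a collagen prolyl hydroxylase subunit, had 59 and 10 UMIs, or 14.4 and 10.2 CPM, against 7 and 11 UMIs, or 3.27 and 1.74 CPM (2.10 ± 0.48; adjusted p = 0.0195). Bnip3, the mitophagy receptor, had 399 and 209 CPM against 96.6 and 64.2 CPM (1.87 ± 0.26; adjusted p = 0.00124). None of these 3 overlapped between the gates. Slc2a1 had 319 and 139 CPM against 94.8 and 61.1 CPM (1.46 ± 0.29), Ankrd37 53.4 and 54.0 CPM against 20.5 and 13.9 CPM (1.42 ± 0.35), and Slc16a3 271 and 216 CPM against 85 and 93.3 CPM (1.37 ± 0.28). Again every Arg1 sum was above every Spp1 sum. Pfkfb3 had 61.7 and 19.4 CPM against 21.5 and 9.63 CPM (1.37 ± 0.24), and Mxi1 255 and 93.7 CPM against 106 and 59.0 CPM (0.97 ± 0.23). For both, Arg1 macrophages of replicate 3 lay below Spp1 macrophages of replicate 1. The promoters of 5 of these genes, and of Pgk1, are the ones printed with their ACGTG matches.

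The lower glycolysis members rose by 0.47 (Gapdh) to 0.87 (Tpi1), Ldha by 0.59, Aldoa by 0.94 and Pdk1, the kinase that limits pyruvate breakdown in mitochondria, by 0.89. Egln1 (0.76 ± 0.15), Hif1a (0.67 ± 0.19), Mif (0.80 ± 0.12), Ndrg1 (0.85 ± 0.22), Bnip3l (0.64 ± 0.14), Pfkl (0.77 ± 0.13) and Gpi1 (0.50 ± 0.11) also rose. Pfkp, Pfkfb4, Aldoc, Hk1, Hk2, P4ha1, Kdm3a, Higd1a, Ddit4 and Ak4 did not pass. Ddit4 differed in sign between the tumours, with 177 and 14.3 CPM in Arg1 macrophages against 71.4 and 24.5 CPM in Spp1 macrophages. Of 42 other pathway genes 6 rose and 1 fell, and glycogen synthase Gys1 (1.33 ± 0.26), the sugar phosphate mutase Pgm2 (1.19 ± 0.18), Fam162a (1.03 ± 0.13) and the hexokinase Hk3 (0.97 ± 0.22) led those that rose. Macrophage markers summed to 48897 and 39984 CPM in Arg1 macrophages, against 34944 and 24556 CPM in Spp1 macrophages, and monocyte markers to 157 and 366 CPM, against 548 and 758 CPM. Fibroblast markers summed to 54.2 and 29.6 CPM in Arg1 macrophages, against 25.2 and 22.9 CPM in Spp1 macrophages, and neutrophil markers to 393 and 77.4 CPM, against 249 and 193 CPM. All 10 macrophage markers had UMIs in both gates, and the part of these differences in the result was not tested.

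**Figure D4:**
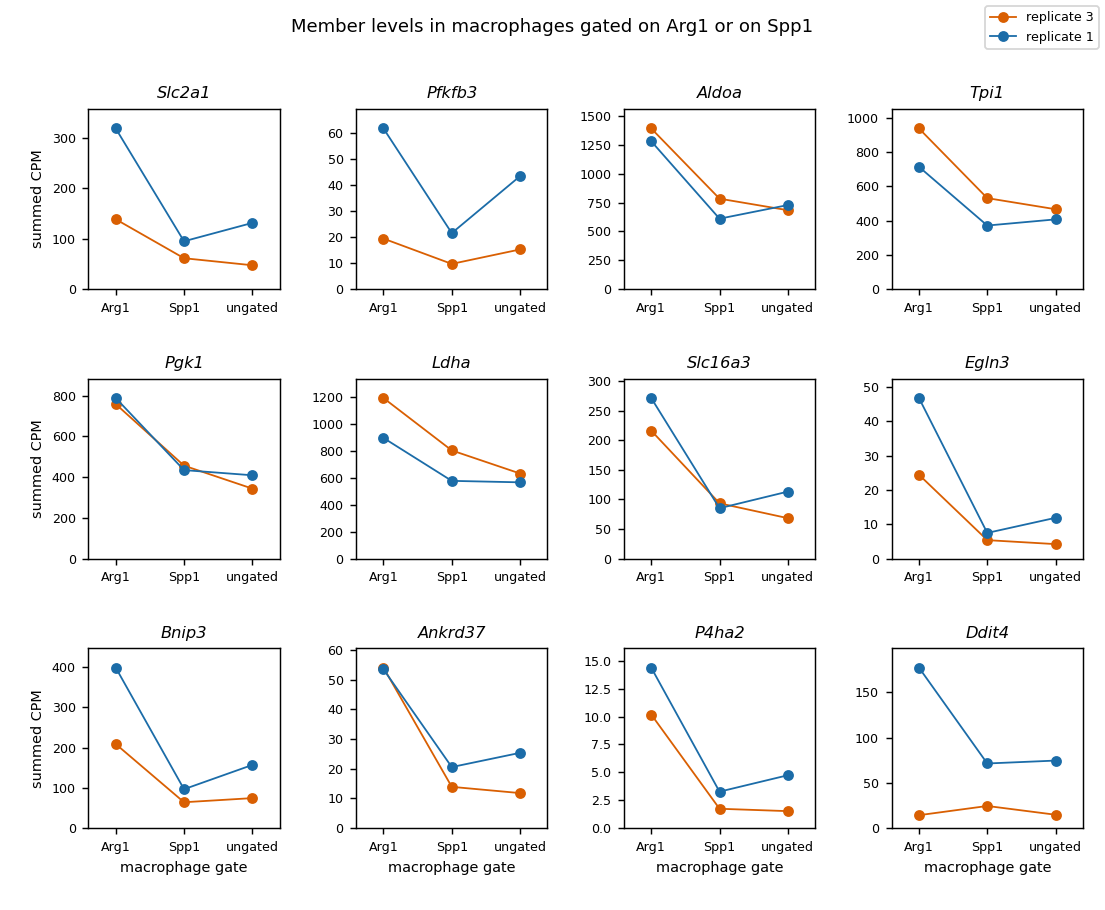
Summed CPM in macrophages gated on Arg1, gated on Spp1 or ungated in the main gating, with 1 point per tumour and gate. The members drawn are Slc2a1, Pfkfb3, Aldoa, Tpi1, Pgk1, Ldha, Slc16a3, Egln3, Bnip3, Ankrd37, P4ha2 and Ddit4. For Egln3, P4ha2, Bnip3, Slc2a1, Ankrd37 and Slc16a3 both Arg1 points lie above both Spp1 points. For Ddit4 the order of these gates differs between the tumours.

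Dividing macrophages (145 and 494 cells) were below ungated macrophages: 11 of 34 members fell and 0 rose, where 10.6% of all genes fell and 15.4% rose (26.0% together), and the median was -0.34 against -0.01 over all genes. Without replicate 1 the members' median was -0.15, and without replicate 3 it was -0.52. Pfkfb3 had 17.1 and 8.61 CPM in dividing macrophages, against 43.4 and 15.2 CPM in ungated ones (-1.11 ± 0.20; edgeR adjusted p = 0.000341). Egln3 had 4.28 and 2.67 CPM against 11.9 and 4.20 CPM (-1.04 ± 0.34), and P4ha2 1.29 and 0.941 CPM against 4.74 and 1.52 CPM (-1.20 ± 0.36). All were lower within each tumour. Ddit4 had 24.8 and 12.4 CPM against 74.6 and 14.8 CPM (-0.94 ± 0.21), Bnip3 60.2 and 54.6 CPM against 157 and 74.5 CPM (-0.90 ± 0.28), and Bnip3l 90.2 and 88 CPM against 168 and 118 CPM (-0.71 ± 0.13). Of these 6 genes, Bnip3, Bnip3l and P4ha2 had every dividing sum below every ungated sum. Hk2 had 69.6 and 33.7 CPM against 129.8 and 44.3 CPM (-0.70 ± 0.16), and Mxi1 74.1 and 45.2 CPM against 155 and 55.0 CPM (-0.70 ± 0.21). Aldoc, Aldoa and Pfkl also fell. The 6 lower glycolysis members ranged from -0.07 (Pgam1) to 0.03 (Gapdh) and 0 of them passed. Of 42 other pathway genes 2 rose and 6 fell, among them Pdk2 (-1.03 ± 0.25), Vegfa (-0.99 ± 0.25), Rora (-0.99 ± 0.17) and Hilpda (-0.97 ± 0.24). DESeq2 called 5 members lower, library size alone as the scaling 8 lower and 1 higher, and the fit without the tumour block 0.

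In the remaining subsets few members passed the test. Folr2 Fcna Cbr2 macrophages (188 and 146 cells) had 1 member higher and 1 lower, where 3.17% and 2.71% of all genes were (5.88% together): P4ha2 had 11.8 and 4.32 CPM against 4.74 and 1.52 CPM in ungated macrophages (1.33 ± 0.31; edgeR adjusted p = 0.0118), and Ddit4 40.8 and 8.40 CPM against 74.6 and 14.8 CPM (-0.85 ± 0.24). The Ddit4 call was lost under DESeq2, library size alone and the stricter cell filter. Mgl2 Asgr2 macrophages (309 and 169 cells) had 3 higher and 0 lower, where 2.67% and 1.87% were (4.54% together). Aldoc had 45.4 and 39.0 CPM in them, against 19.4 and 10.3 CPM in ungated macrophages (1.59 ± 0.20; adjusted p = 0.00011), with every gated sum above every ungated one. Pfkfb4 (0.64 ± 0.16) and Pfkp (0.62 ± 0.15) were the others. Atp6v0d2 Mmp9 macrophages (177 and 49 cells) had 1 member higher, Ndrg1, at 81.0 and 17.7 CPM against 33.1 and 13.4 CPM (1.14 ± 0.20; adjusted p = 0.0216), and 0 lower. In replicate 3 alone its log2 ratio was 0.36, and under a stricter gate the call was lost. There 0.274% of all genes rose and 0.00914% fell, 18 members were higher and 0 lower at an unadjusted p under 0.05, and the median was 0.36 over the members (0.19 without replicate 1 and 0.47 without replicate 3) against -0.01 over all genes. Among 42 other pathway genes 4 rose and 1 fell in Folr2 Fcna Cbr2 macrophages, led by Bhlhe41 (1.34 ± 0.16), Slc2a6 (1.16 ± 0.26) and Hk3 (0.86 ± 0.20) with Bhlhe40 lower (-0.72 ± 0.17), and 1 rose (Bhlhe40, 0.86 ± 0.16) and 3 fell in Mgl2 Asgr2 macrophages (Eno2, -3.22 ± 0.90, Bhlhe41, -2.17 ± 0.26, and Plod1, -0.65 ± 0.15). In Atp6v0d2 Mmp9 macrophages 0 of 42 were called by edgeR. Without the tumour block 0 members were called in each of these 3 subsets.

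Macrophages gated on Hmox1, Fbxo32 and Mt2 numbered 239 in replicate 1 and 7 in replicate 3 and were not tested. In replicate 1 they held the highest level of any subset for 15 of 34 members, among them Slc2a1 at 305 CPM, Bnip3 at 385 CPM, Pfkfb3 at 93.7 CPM and P4ha2 at 19.3 CPM, against 131, 157, 43.4 and 4.74 CPM in ungated macrophages. Spp1 Arg1 macrophages held the highest level for 13 members in replicate 1 and 16 in replicate 3, and dividing macrophages the lowest for 23 in replicate 1 and 4 in replicate 3. Among subsets with values only, Cyp4f18 Pdpn macrophages (137 and 182 cells) had 236 and 73.3 CPM of Slc2a1, 165 and 130.4 CPM of Slc16a3 and 26.7 and 10.2 CPM of Egln3. Gbp2b Il18bp macrophages (132 and 261 cells) had 249 and 168 CPM of Bnip3 and 16.4 and 15.6 CPM of Egln3, and Fxyd2 Col14a1 macrophages (127 and 219 cells) had 148 and 70.5 CPM and 11.2 and 1.71 CPM of these genes, against 157 and 74.5 CPM and 11.9 and 4.20 CPM in ungated macrophages. Ifit Rsad2 macrophages (106 and 111 cells) had 173 and 51.6 CPM of Slc2a1, and Vcam1 Hes1 macrophages (282 and 19 cells) 194 and 103 CPM of Hk2, against 131 and 47.1 CPM and 129.8 and 44.3 CPM.

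No member passed the test between spatial code groups of macrophages. Codes ZC1 and ZC5 were present in both tumours, and the region that each stood for is not given in the sources used here. Macrophages were cut into 3 groups of near equal size by the ratio of ZC1 to ZC5 UMIs within each tumour (916 and 993 cells in the ZC1-rich group, 917 and 994 in the ZC5-rich group). In edgeR's test 0 members rose and 0 fell between the ZC1-rich and the ZC5-rich group, where 0.00803% of all genes rose and 0.0% fell, and DESeq2 also called 0. At an unadjusted p under 0.05, 9 members were higher and 0 lower. The log2 fold changes ran from -0.04 to 0.75 with a median of 0.08, against -0.00 over all genes, and 22 of 34 members were higher in both tumours. Egln3 had 17.0 and 5.44 CPM in ZC1-rich macrophages, against 13.7 and 4.09 CPM in ZC5-rich ones (0.34 ± 0.12), and Ankrd37 had 32.4 and 15.1 CPM against 26.5 and 12 CPM (0.30 ± 0.09). Pdk1 had 20.3 and 12 CPM against 17.2 and 10.3 CPM (0.22 ± 0.09). These are small beside the differences between the tumours, and at this depth none passed after adjustment. Dividing cells made up 5.35% and 16.1% of the ZC1-rich and 5.56% and 17.1% of the ZC5-rich groups. The share of the code found in 1 tumour, ZC2 in replicate 1 and ZC6 in replicate 3, was described without a test: between the code-rich and the code-poor group, 7 members were higher and 27 lower for ZC2 (log2 ratios from -0.36 to 0.15, median -0.08), and 25 were higher and 9 lower for ZC6 (-0.17 to 0.27, median 0.06).

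The macrophages of the 2 tumours differed in several HIF targets, glucose uptake and hexokinase Hk2 among them, while 5 of the 6 lower glycolysis members and Ldha had log2 ratios between -0.21 and 0.16. The other lower glycolysis member, Eno1, was at -0.42. The comparison of the tumours has 1 library a side and no test. Of 32 members with at least 10 CPM in 1 tumour, 0 were more than 2-fold higher and 9 more than 2-fold lower in replicate 3 than in replicate 1, where 1.68% of all such genes were higher and 2.92% lower. The median log2 ratio of replicate 3 over replicate 1 was -0.39 for the members and -0.01 for all genes, and 27 of 32 members were negative. Ddit4 had 16.2 CPM in replicate 3 and 83.2 CPM in replicate 1 (-2.29), Slc2a1 52.5 CPM in replicate 3 and 143 CPM in replicate 1 (-1.43), and Hk2 44.1 CPM in replicate 3 and 139 CPM in replicate 1 (-1.63). Pfkfb3 (-1.65), Mxi1 (-1.57), Ndrg1 (-1.46), Egln3 (-1.43), Bnip3 (-1.22) and Ankrd37 (-1.15) were the others past 2-fold. Gapdh had 2164 CPM in replicate 3 and 2003 CPM in replicate 1 (0.11), and Tpi1, Ldha, Pkm and Pgk1 had log2 ratios of 0.16, 0.15, -0.03 and -0.21.

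Other classes are given with their own background, and whether they share a direction was not tested. In T cells 9 of 31 members were more than 2-fold lower and 0 higher in replicate 3 (4.24% and 3.54% of all genes), with a median of -0.61 over members and -0.10 over all genes; Egln3 was at -1.74, Ndrg1 at -1.45 and Bnip3 at -1.30. In monocytes 3 of 32 were lower and 0 higher (2.82% and 3.01%), with a median of -0.26. In NK cells 2 of 29 were lower and 0 higher (2.66% and 4.72%), with a median of -0.06 and 11 members positive. In conventional dendritic cells 1 of 31 was lower and 0 higher (2.33% and 1.58%), close to the background, with a median of -0.11 and 12 members positive. Neutrophils had 14 of 31 lower and 1 higher (13.1% and 28.5%) on 39 cells in replicate 3. Within macrophages the ratio depended on the subset: for Slc2a1 it was 0.07 in dividing, -1.58 in Spp1 Arg1 and -1.46 in ungated macrophages, for Bnip3 -0.14, -1.76 and -1.06, and for Ddit4 -0.94, -2.24 and -2.26. Macrophages of replicate 3 had a median of 24198 UMIs per cell and those of replicate 1 had 18941.5, and tumour, library and depth cannot be told apart.

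**Figure D5:**
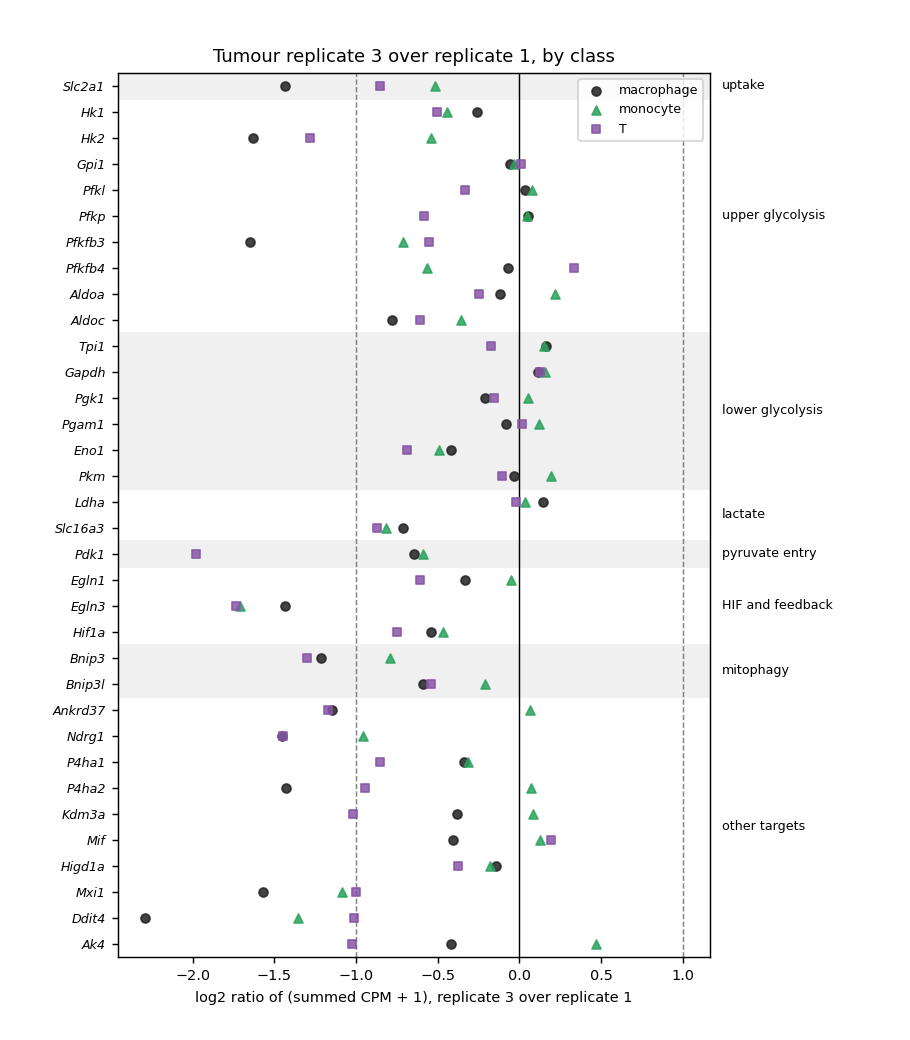
Log2 ratio of CPM + 1, replicate 3 over replicate 1, for each member in macrophages, monocytes and T cells, with dashed lines at 2-fold. Ddit4 is at -2.29 in macrophages, while Gapdh, Tpi1 and Ldha lie between 0.11 and 0.16.

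Within macrophages, correlations from cell to cell were higher among lower glycolysis members than among HIF targets, in both tumours. Over 2756 and 3041 macrophages, Pearson's r of log2(1 + UMIs per 10000) had a median of 0.55 and 0.60 over the 15 pairs of lower glycolysis members, with a range of 0.50 to 0.64 and 0.54 to 0.67. Over the 105 pairs of the HIF and oxygen sensor genes, mitophagy receptors and further targets the medians were 0.14 and 0.11, and over all 561 pairs 0.16 and 0.13. By the smaller r of the 2 tumours, the closest pairs among the 105 were Bnip3 with Mif (0.53 and 0.51), Bnip3 with Egln3 (0.37 and 0.37) and Bnip3 with Egln1 (0.40 and 0.35). The cells of a tumour share a library, members of low count give low r whatever their relation, and r with a cell's depth ran as high as 0.20 and 0.28 among members, so these values are descriptions.

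Gene identity limits some values. Gapdh, Eno1, Pgam1, Aldoa, Ldha and Pgk1 belong to families with near-identical processed copies in the mouse genome, and how reads matching several places were counted is not given in the sources used here, so their levels are uncertain to that extent. Of the members printed with a promoter, Slc2a1 overlaps Gm12867 and Gm12868 on the other strand, Bnip3 overlaps Gm45507 and Gm18258, and Ankrd37 overlaps Ufsp2 and Lrp2bp. Whether counting used the strand is not given in the sources used here, so how reads of overlapping genes were assigned is not known from them.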

How the data were processed

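The authors deposited matrices of UMI counts per feature and barcode, whole numbers that had not been normalised, made with Cell Ranger 4.0 and the mm10 build per the submitters' processing notes. The annotation release and the handling of reads matching several places are not stated in the sources. The members, marker lists, gates and other gene lists were chosen with earlier results of these data known, and gate thresholds and the separate Arg1 and Spp1 gates were set after the data were seen. Classes were rebuilt from markers and are not the authors' annotation.

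Barcodes with at least 1000 gene UMIs and 500 genes and at most 10% mitochondrial UMIs were taken as cells. A class needed a set number of its listed markers (8 of 10 for macrophages, 6 of 10 for neutrophils). Cells that passed the gates of 2 classes, or carried markers of another lineage, were treated as possible doublets and left out (464 and 359 cells), and 523 and 1556 cells passed no gate. No doublet caller was run. Macrophages with at least 4 of the listed division markers were set apart first as dividing. For each other subset, the markers' UMIs per 10000 were summed, put on the log2(1 + level) scale and standardised over macrophages of both tumours. A cell went to the subset with its highest standardised level, if that was at least 1.5. In the Spp1 Arg1 subset 10 and 15 cells lay within 0.1 of that limit. Code groups used macrophages with at least 20 UMIs of ZC1 and ZC5 together. UMIs were summed per tumour and group. Groups of at least 20 cells in both tumours were compared in edgeR 4.0.16 (limma 3.58.1, R 4.3.3) by the quasi-likelihood test, with TMM scaling, filterByExpr and the tumour as a block. Benjamini-Hochberg adjustment ran across every gene tested, with a threshold of 0.05, and gate markers were not tested. The error of a log2 fold change is its size divided by the square root of F. The procedure was also run on simulated counts with known changes. Apart from those changes, all groups had a common profile and no tumour effect, so the simulation cannot show how the procedure performs on the real groups.

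The pairing behind the block comes from shared tissue, as both sides of a comparison were sorted from 1 tumour. Replicate differences of classes correlated across genes at 0.11 to 0.62 over 15 pairs, and those of macrophage subsets at 0.52 to 0.85 over 45 pairs. For each comparison, values per tumour are given for up to 8 called members with the largest change in a common direction, and up to 4 other pathway genes are named. Alternatives were no block, DESeq2 1.42.0, library size alone, no filter on low counts, a stricter cell filter, a mitochondrial limit of 5%, subtraction of 10% free RNA, stricter gates, other code limits and each tumour left out. Python 3.11.15, numpy 2.4.6, pandas 2.3.3 and matplotlib 3.10.9 were used.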

Additional observations from a re-analysis of the deposited data

How the results depend on the processing

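Counts here are totals of called members. Groups were paired by tumour in the main design. Without the replicate block the calls were 0 in monocytes, dividing, Folr2 Fcna Cbr2, Mgl2 Asgr2, Atp6v0d2 Mmp9, Spp1 Arg1 and Arg1 over Spp1 macrophages, 3 in conventional dendritic cells, 2 in T cells, 6 in NK cells and 15 in neutrophils, and of 108 calls of the main fits 26 were also made. With no filter on low counts there were 4 calls in monocytes, 15 in dendritic cells, 20 in T cells, 22 in NK cells, 19 in dividing, 4 in Folr2 Fcna Cbr2, 8 in Mgl2 Asgr2 and 10 in Atp6v0d2 Mmp9 macrophages. The stricter cell filter gave 9 in monocytes, 17 in dendritic cells, 21 in NK cells and 1 in Folr2 Fcna Cbr2 macrophages, and left too few neutrophils to be run. Library size alone gave 6 in monocytes, 15 in dendritic cells and 1 in Folr2 Fcna Cbr2 macrophages, and DESeq2 gave 1, 5 and 1 in monocytes, dividing and Folr2 Fcna Cbr2 macrophages. A mitochondrial limit of 5% left 1 call in monocytes and subtraction of free RNA 0, and a stricter gate left 0 in Atp6v0d2 Mmp9 macrophages. The gate on Spp1 alone called 2 members and put Egln3 at -0.052 and Mif at -0.0060. The code groups had 0 calls under each setting run. Leaving out replicate 1 or replicate 3 gave neutrophil medians of -0.29 and 1.33, Hk1 at -1.25 and 2.16, Hk2 at -2.17 and 2.19, Bnip3 at -0.78 and 1.21, Kdm3a at -4.27 (neutrophils at 0 UMIs, so no measured fold) and 1.94, Higd1a at -0.42 and 2.04, monocyte medians of 0.20 and -0.00021, and Mgl2 Asgr2 medians of 0.049 and -0.17. With 1 tumour left these are ratios with no test. DESeq2 also made 92 of the 108 calls, and library size alone 99. The cause of these changes was not tested. Depth limits the neutrophils of replicate 3, and the Hmox1 Fbxo32 Mt2 comparison was not run, with 7 cells in replicate 3.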
